A study of Mus musculus with 45 samples.

Results

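The liver response to simvastatin was measured in mice that ate a high-cholesterol diet, by setting the 3 arrays of the HCD+Sim group against the 3 arrays of the HCD group. The members are all 22080 genes of the expression table on these 6 of 45 arrays, and genes of exocrine pancreas and skeletal muscle are kept apart from those of the hepatocyte. All mice were male C57BL/6, by the methods 7 weeks old when purchased, with 8 in a diet group. They were sampled on day 43 after 8 h without food and water. HCD mice ate the AIN-93 diet with 0.5% cholesterol, HCD+Sim mice ate the same food with simvastatin at 0.03 g per 100 g, and Control mice ate AIN-93 alone. The extract groups, HCD+Gl-1 and HCD+Gl-2, ate HCD with 1.0% of a hydroalcoholic extract of Ganoderma lucidum, grown without (Gl-1) or with (Gl-2) acetylsalicylic acid. The groups carry no genetic change, so diet and drug are what the labels say differ. According to the methods, array A holds pooled RNA of 4 mice, array B that of the other 4, and array C a mix of both, so 3 arrays stand for 2 separate pools and each p-value measures the spread among pools only. Affymetrix gene arrays for the mouse (Gene ST v1.0) gave the expression, printed as log2 intensity, on which 1 unit is a doubling. A probe set's level can be compared between arrays but not with the level of another gene. In pooled tissue RNA, fewer cells of a type and less RNA per cell cannot be told apart.

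Simvastatin is a statin, a drug that inhibits cholesterol synthesis. Hepatocytes sense sterols through the SREBP factors: when membrane cholesterol is low, SREBP-2 raises the enzymes of sterol synthesis, while SREBP-1c, together with LXR and insulin, drives fatty acid synthesis. PPAR alpha, a receptor for fatty acids, raises fatty acid oxidation and the Cyp4a hydroxylases in the liver.

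The tissue of these arrays was checked first, because the free-text description calls them brain while the title and tissue label say liver. Alb, the serum albumin gene of hepatocytes, lay between 13.69 and 13.75 on the 6 liver arrays, against 7.68 to 7.95 on the 6 kidney arrays and 5.86 to 6.66 on the 6 brain arrays of the same diets. The arrays therefore read as liver. Across 18 hepatocyte genes the list median per liver array lay between 12.74 and 12.95, the differences between HCD+Sim and HCD ran from -0.14 to 0.10 with a median of 0.00, and none passed the test.

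For some genes array C of HCD+Sim did not read as a mix of A and B. Serum amyloid Saa2, an acute phase gene, read 11.95 on HCD+Sim array A, 11.24 on B and 7.12 on C, where the log2 of the mean of A and B is 11.64. Lcn2, the iron-binding protein lipocalin 2, read 12.23, 12.60 and 9.02, where that log2 of the mean is 12.43. Over all genes, the share for which array C lay between A and B did not set this group apart, at 26.1% in a range of 20.4% to 35.5% over the 15 groups of the series. Among the 57 genes called below, however, array C lay between A and B in 4, below both in 45 and above both in 8. All 13 genes called lower had array C below both. Results below are therefore also given without this array where it changes a call.

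Differential expression (DE) was called by limma over all 45 arrays at a log2 difference beyond 0.7 and a Benjamini-Hochberg adjusted p of at most 0.05. Of 22080 genes, 57 were DE in liver under simvastatin (0.258%), 44 higher (0.199%) and 13 lower (0.0589%). The exocrine pancreas list held 14 of the 44 higher genes and the skeletal muscle list 8. Outside these lists 35 of 21965 genes were DE (0.159%), 22 higher (0.1%) and 13 lower (0.0592%). The adjusted p alone called 242 genes (1.1%), 184 higher (0.833%) and 58 lower (0.263%), 2588 genes (11.7%) had an unadjusted p under 0.05, and the median log2 difference of all genes was 0.03.

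These calls rest on a spread estimated over 3 tissues. The median SD within a group was 0.123 in liver HCD+Sim and 0.102 in liver HCD. It was 0.078 to 0.086 in the kidney groups and 0.078 to 0.106 in the brain groups. A spread shared by the tissues can therefore be smaller than that of liver, and the adjusted p too low. With limma on the 15 liver arrays alone, 5 genes were DE (Mt1, Mt2, H2-Ab1, H2-Aa and Cxcl14), 6 passed the adjusted p alone and 1656 had an unadjusted p under 0.05. With the 6 compared arrays alone no gene was DE, the lowest adjusted p was 0.0539 and 1729 genes had an unadjusted p under 0.05. The adjusted p with liver arrays only is therefore given for single DE genes or as a range for a group. Without HCD+Sim array C the 45-array fit called 74 genes, 68 higher and 6 lower, so 13 lower calls became 6.

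Fatty acid synthesis genes were lower under simvastatin. All 22 genes of the list had a negative difference, where 8338 of 22080 genes did, with a median log2 of -0.43. Of them 7 were DE, against 0.0589% of all genes in this direction. By the adjusted p alone 15 of 22 fell, against 0.263% of all genes. In 18 of 22 the 3 HCD+Sim arrays all lay below the 3 HCD arrays, against 4.09% of all genes. In HCD against Control this list stood the other way, with a median of 0.29. Both comparisons use the same 3 HCD arrays with opposite sign, so noise in those arrays alone would give opposite differences. This limit holds below wherever HCD is set against Control.

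Fasn, the fatty acid synthase, read 11.19, 11.30 and 11.01 on HCD arrays A, B and C and 10.16, 10.58 and 9.42 on HCD+Sim. The groups did not overlap, and array C was the lowest of its group in both. Its log2 difference was -1.11 (SE 0.20, adjusted p 0.00153), a 2.16-fold decrease. HCD had been higher than Control by 0.85 (adjusted p 0.0194), and HCD+Sim lay -0.27 from Control (adjusted p 0.664). Acly makes cytosolic acetyl-CoA from citrate. It read 10.05, 10.20 and 9.93 in HCD and 9.16, 9.41 and 8.92 in HCD+Sim, a fall of 0.90 (SE 0.13, adjusted p 7.8e-05). Elovl6 lengthens palmitate to stearate. It read 10.98, 11.25 and 10.62 in HCD and 10.06, 10.30 and 10.05 in HCD+Sim, a log2 difference of -0.82 (SE 0.14, adjusted p 0.000846). HCD alone had raised Elovl6 by 0.67 over Control (adjusted p 0.00585).

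Acacb, the mitochondrial acetyl-CoA carboxylase whose product malonyl-CoA holds back fatty acid import, read 8.84, 9.01 and 8.55 in HCD and 8.09, 8.23 and 7.65 in HCD+Sim. It fell by 0.81 (SE 0.13, adjusted p 0.000296) and lay below Control as well, with a difference of -1.13 (adjusted p 2.25e-07). Me1, which supplies NADPH, read 11.36, 11.66 and 11.11 against 10.58, 10.85 and 10.36 and fell by 0.78 (adjusted p 0.000685). Thrsp, a protein that promotes lipogenesis, read 11.50, 11.57 and 11.32 against 10.58, 11.05 and 9.60, a log2 difference of -1.06 (SE 0.24, adjusted p 0.0136). Its spread in HCD+Sim was mostly array C. Lpin1, a phosphatidate phosphatase of triglyceride synthesis, read 10.54, 10.35 and 10.60 against 9.60, 9.79 and 9.48 and fell by 0.87 (SE 0.18, adjusted p 0.00775).

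Acaca, the cytosolic carboxylase that commits acetyl-CoA to fatty acids, fell by 0.66 (adjusted p 0.000436), and Acss2, an acetyl-CoA synthetase, by 0.65 (adjusted p 0.0007), both short of the fold threshold. Srebf1, which encodes SREBP-1c, read 10.64, 10.67 and 10.61 against 10.27, 10.43 and 9.95. These groups did not overlap, but the difference of -0.42 did not pass (adjusted p 0.165). Srebf1 had risen by 1.14 in HCD over Control (adjusted p 1.78e-06) and was 0.72 above Control in HCD+Sim (adjusted p 0.00244). Scd1, the stearoyl-CoA desaturase, and Dgat2, which makes triglyceride, differed by -0.11 and -0.07, with overlapping arrays.

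With liver arrays only none of the 7 genes passed, with adjusted p from 0.0646 (Elovl6) to 0.335 (Thrsp), and without HCD+Sim array C or without HCD array B 4 of 7 calls held. Fasn (-0.80 without array C), Acly (-0.78) and Lpin1 (-0.80) kept their calls with each of the 6 arrays left out in turn.

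**Figure D1:**
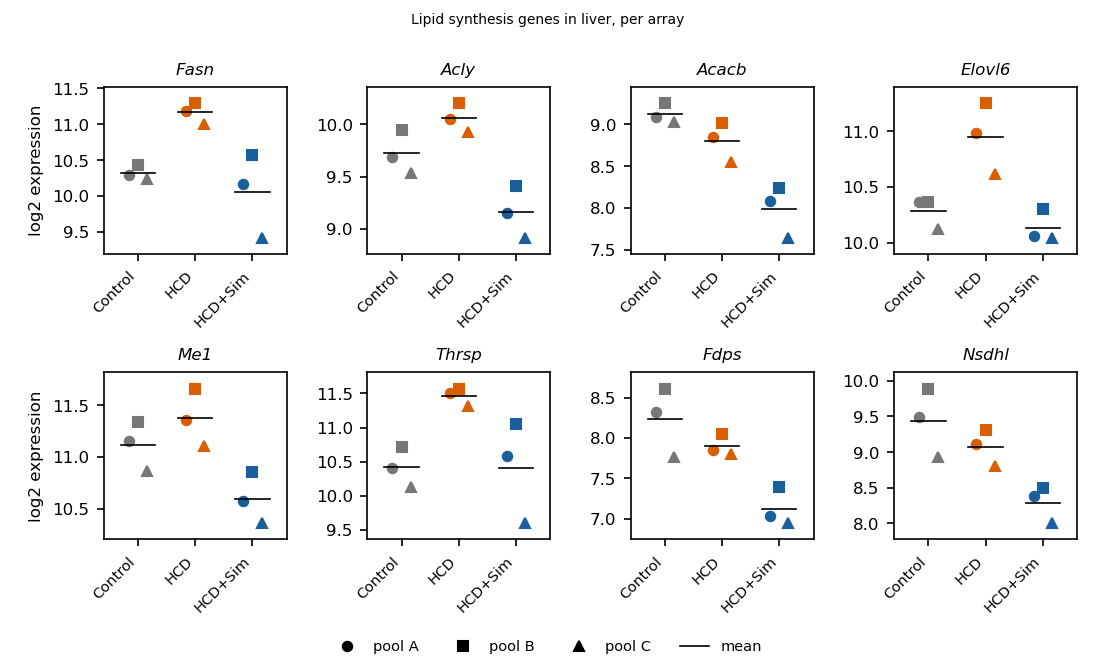
Log2 expression (vertical axes, each with its own range) of 8 DE genes of lipid synthesis on the Control, HCD and HCD+Sim liver arrays. Symbols mark pools A, B and C and lines the group means. Every HCD+Sim array lies below every HCD array in all 8 genes, which were named by a rule that asks for this. Array C is the lowest array of both HCD and HCD+Sim in each.

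The promoters of the DE lipogenic genes with the largest differences are shown with their CCAAT boxes, the letters of NF-Y sites. The sequences are the 250 bases before the RefSeq start on GRCm38.p6, 5′ to 3′ on the gene's strand, with CCAAT or its reverse complement ATTGG in capitals. Fasn lies at chr11:120824548-120824797 (minus strand) and holds 3 matches, of which a pair on opposite strands overlaps. Thrsp lies at chr7:97417551-97417800 (minus strand) and holds 2.
Fasn: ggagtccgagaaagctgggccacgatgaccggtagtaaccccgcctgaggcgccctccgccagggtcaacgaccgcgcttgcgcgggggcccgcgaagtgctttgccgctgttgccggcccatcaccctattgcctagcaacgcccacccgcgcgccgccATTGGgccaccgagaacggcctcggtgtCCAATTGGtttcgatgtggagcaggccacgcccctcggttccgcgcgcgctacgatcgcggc
Thrsp: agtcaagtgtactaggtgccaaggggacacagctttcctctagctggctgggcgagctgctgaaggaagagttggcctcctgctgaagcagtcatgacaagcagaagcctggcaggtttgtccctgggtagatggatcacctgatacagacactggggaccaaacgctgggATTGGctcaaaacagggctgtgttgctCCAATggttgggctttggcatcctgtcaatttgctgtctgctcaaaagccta
CCAAT on either strand was found in 33.8% of 32851 promoters of this length, and 3 or more matches in 2.79%. Among fatty acid synthesis genes 9 of 19 promoters in the table held it and among cholesterol synthesis genes 14 of 16. Among the DE lower genes themselves it was 4 of 11 (36.4%), near the share of all promoters. The letters TCACNCCAC of a sterol regulatory element were found in 1.05% of all promoters and in none of these 11. A match is a run of letters, not a measured site.

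Cholesterol synthesis genes were mostly lower as well. Of 21 genes 18 had a negative difference, where 8338 of 22080 genes did. The list median was -0.20, and 2 were DE, both lower (0.0589% of all genes). In 13 of 21 the HCD+Sim arrays all lay below the HCD arrays (4.09% of all genes). Fdps makes farnesyl diphosphate, the branch point to sterols and prenyl groups. It read 7.85, 8.04 and 7.80 in HCD and 7.03, 7.40 and 6.94 in HCD+Sim, a fall of 0.78 (SE 0.16, adjusted p 0.00859). Nsdhl removes methyl groups from the sterol ring. It read 9.12, 9.31 and 8.80 against 8.38, 8.50 and 8.00 and also fell by 0.78 (SE 0.16, adjusted p 0.00735). Both lay below Control too, with differences of -1.11 (Fdps, adjusted p 3.38e-05) and -1.15 (Nsdhl, adjusted p 1.48e-05).

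By the adjusted p alone Dhcr7 (-0.64), the last enzyme of the pathway, Cyp51 (-0.49), the lanosterol demethylase, and Pmvk (-0.46), phosphomevalonate kinase, fell too. Hmgcs1, an early synthase of the pathway, differed by -0.30 (adjusted p 0.286). Sqle, the squalene epoxidase, stood at 0.08 with overlapping arrays, after a fall of 0.92 from Control to HCD (adjusted p 4.21e-05).

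Neither cholesterol synthesis call held with liver arrays only (adjusted p 0.265 for Fdps and 0.331 for Nsdhl), without HCD+Sim array C or without HCD array B. Among 15 genes of sterol sensing and uptake none was DE, and the list median was -0.05. Insig1, which retains the SREBP complex in the endoplasmic reticulum, read 10.71, 10.78 and 10.54 against 10.14, 10.22 and 10.07, a difference of -0.53 (adjusted p 0.066).

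**Figure D2:**
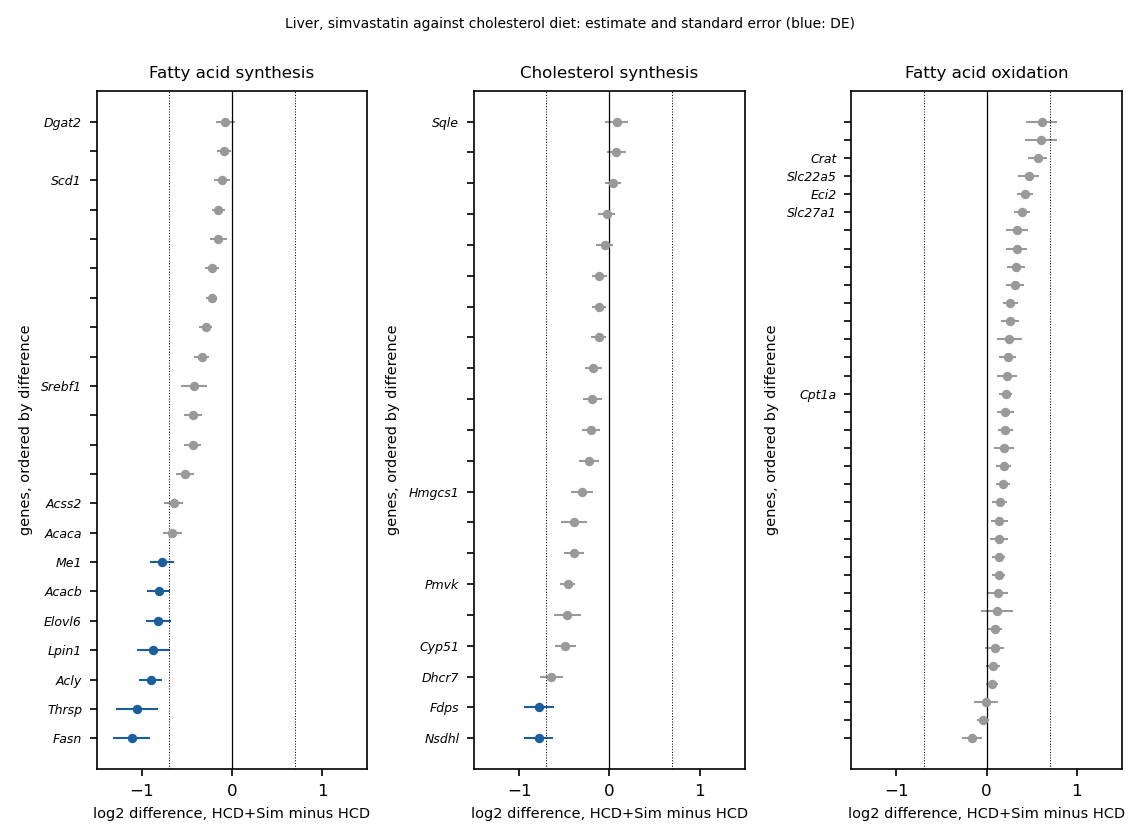
Log2 difference of HCD+Sim minus HCD in liver (horizontal axes) for each measured gene of 3 lists, with points for the limma estimates, bars for the standard errors, blue for DE genes and dotted lines at the fold threshold of 0.7. Names are given for genes described in the text. All 22 fatty acid synthesis genes and 18 of 21 cholesterol synthesis genes lie left of 0, and 32 of 35 fatty acid oxidation genes lie right of it, none of the latter DE.

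Fatty acid oxidation leaned the other way with small differences. Of 35 genes 32 were positive, with a median of 0.21, where 13742 of 22080 genes were positive. None was DE, and 4 rose by the adjusted p alone (0.833% of all genes). In kidney 32 of 35 were positive as well, where 11331 of 22080 genes were, with a median of 0.13. There 2 were DE higher (0.0272% of all genes), among them Pdk4 (0.95), a kinase that restrains glucose oxidation. Pdk4 differed by 0.61 in liver (adjusted p 0.0779). Crat, the carnitine acetyltransferase, read 8.96, 8.78 and 9.12 in HCD and 9.53, 9.30 and 9.72 in HCD+Sim and rose by 0.56 (adjusted p 0.00258). Eci2 (0.43), an enoyl-CoA isomerase, Slc22a5 (0.46), the carnitine carrier, and Slc27a1 (0.39), a fatty acid transporter, were the other three. Cpt1a, the gate of mitochondrial import, differed by 0.21 (adjusted p 0.19) although its groups did not overlap.

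The Cyp4a genes, omega-hydroxylases of fatty acids, rose. All 6 measured were positive, with a median of 0.93, and 4 were DE higher against 0.199% of all genes. Cyp4a14 had the largest difference among DE genes. It read 9.38, 7.88 and 9.63 in HCD and 11.53, 10.63 and 12.00 in HCD+Sim, with 10.48, 10.47 and 10.29 in Control. Array B was the lowest of its group in both HCD and HCD+Sim. Cyp4a14 rose by 2.42 (SE 0.33, adjusted p 2.96e-05), 5.36-fold, and the HCD mean lay -1.45 from Control (adjusted p 0.0125). Cyp4a31, Cyp4a32 and Cyp4a10, neighbours of near-identical sequence whose probes may share signal, rose by 0.98, 0.96 and 0.90. For Cyp4a31 HCD array B read 9.30 beside 10.27 and 10.00. Cyp4a12a and Cyp4a12b, the testosterone-dependent members, differed by 0.13 and 0.09 and did not pass.

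Of the Cyp4a genes Cyp4a14 alone kept its call without HCD array B or without HCD+Sim array C. With liver arrays only the adjusted p was 0.0727 for Cyp4a14 and 0.245 to 0.338 for the other three. Among 12 acyl-CoA thioesterases 1 was DE, higher (0.199% of all genes). Acot3, a peroxisomal enzyme, read 6.95, 6.84 and 7.26 in HCD and 8.19, 7.41 and 8.12 in HCD+Sim and rose by 0.89 (SE 0.22, adjusted p 0.0263), but the call was lost without HCD array A, HCD array B, HCD+Sim array A or HCD+Sim array C (0.75 to 0.85). With liver arrays only its adjusted p was 0.39. Acot1, its cytosolic relative with near-identical sequence, differed by 0.80 (adjusted p 0.0554).

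**Figure D3:**
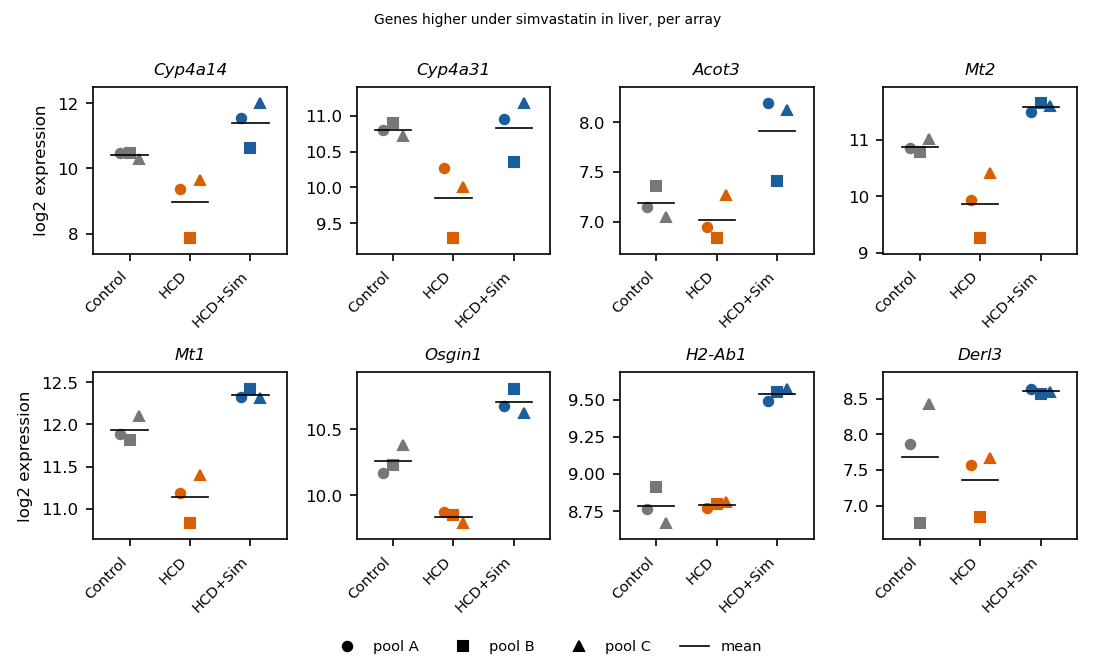
Log2 expression (vertical axes, each with its own range) of 8 genes that were DE higher under simvastatin, on the Control, HCD and HCD+Sim liver arrays. Symbols mark pools A, B and C and lines the group means. The HCD+Sim arrays lie above all HCD arrays in each gene, as the rule that named these genes asks. For Mt1 and Mt2 the Control arrays lie between the other groups.

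The metallothioneins, small cysteine-rich proteins that bind zinc and copper, had the lowest adjusted p of the comparison. Mt2 read 9.93, 9.27 and 10.41 in HCD and 11.50, 11.65 and 11.60 in HCD+Sim. The 3 HCD+Sim arrays lay close together and above all HCD and Control arrays. Mt2 rose by 1.72 (SE 0.16, adjusted p 8.76e-09), 3.29-fold. Mt1 read 11.19, 10.83 and 11.40 against 12.32, 12.42 and 12.31 and rose by 1.21 (SE 0.10, adjusted p 1.18e-09). HCD had lowered Mt2 by 1.02 and Mt1 by 0.79 against Control, and HCD+Sim ended above Control by 0.70 (adjusted p 0.0138) and 0.42 (adjusted p 0.0243). Both kept their calls with every array left out and with liver arrays only (adjusted p 0.00192 each). Of 11 genes in a list of metallothioneins and zinc handling, chosen after the values were seen, these 2 were DE (0.199% of all genes higher). Mtf1, the metal-sensing factor, differed by -0.05, and Slc30a1, a zinc exporter, by 0.15.

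The promoters of both genes are shown because metal response elements sit there. Capitals mark their core letters, TGCACNC or TGCGCNC, or the reverse complement, a search added after the values were seen. Mt1 lies at chr8:94178839-94179088 (plus strand) with 1 match and Mt2 at chr8:94172368-94172617 (plus strand) with 3.
Mt1: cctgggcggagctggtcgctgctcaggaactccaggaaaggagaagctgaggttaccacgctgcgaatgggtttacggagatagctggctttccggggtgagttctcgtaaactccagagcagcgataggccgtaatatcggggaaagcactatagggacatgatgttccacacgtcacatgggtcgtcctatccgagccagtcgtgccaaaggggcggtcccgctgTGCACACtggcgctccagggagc
Mt2: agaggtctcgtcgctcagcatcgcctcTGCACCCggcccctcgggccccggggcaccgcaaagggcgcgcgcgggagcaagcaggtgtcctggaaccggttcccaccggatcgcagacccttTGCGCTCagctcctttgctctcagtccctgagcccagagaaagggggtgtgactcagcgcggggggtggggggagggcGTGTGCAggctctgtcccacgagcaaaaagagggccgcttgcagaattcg
At least 1 match was found in 21.4% of all promoters of the table and 3 or more in 1.26%.

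Derl3, a component of the machinery that removes misfolded proteins from the endoplasmic reticulum, read 7.57, 6.83 and 7.67 in HCD and 8.64, 8.57 and 8.60 in HCD+Sim. It rose by 1.24 (SE 0.22, adjusted p 0.000994), with Control arrays spread from 6.75 to 8.42. It kept its call with each array left out but not with liver arrays only (adjusted p 0.223). It was the 1 DE gene of 23 in the endoplasmic reticulum stress list (0.199% of all genes higher), whose median was 0.10. Sdf2l1 (0.52) and Hyou1 (0.49), chaperone components, rose by the adjusted p alone. Hspa5, the main chaperone of this response, read 11.43, 11.13 and 11.49 against 11.41, 11.18 and 11.46, a difference of 0.00. The promoter of Derl3, at chr10:75893148-75893397 (plus strand), is shown for its 5 CCAAT matches, in capitals.
Derl3: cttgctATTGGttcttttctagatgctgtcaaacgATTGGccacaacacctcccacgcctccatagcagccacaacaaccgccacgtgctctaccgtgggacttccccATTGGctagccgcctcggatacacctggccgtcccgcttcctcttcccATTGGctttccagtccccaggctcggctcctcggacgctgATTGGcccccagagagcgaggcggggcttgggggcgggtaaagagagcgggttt
Of all promoters 0.213% held 5 or more. It also held the endoplasmic reticulum stress element (CCAAT and CCACG parted by 9 bases) on the opposite strand. On either strand 0.113% of all promoters held it, and 7 of 21 in the list. This search too was added after the values were seen.

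Genes of antigen presentation and of the interferon response were higher. In a list of 23 measured genes, written after the values were seen, 22 were positive, where 13742 of 22080 genes were. The median was 0.32, 4 were DE (0.199% of all genes higher) and 10 rose by the adjusted p alone (0.833%). In kidney 22 of 23 were positive too, where 11331 of 22080 genes were. Their kidney median was 0.24 and 2 were DE higher (0.0272% of all genes). H2-Ab1, the beta chain of an MHC class II molecule, read 8.77, 8.80 and 8.81 in HCD and 9.49, 9.55 and 9.57 in HCD+Sim. It rose by 0.75 (SE 0.08, adjusted p 3.92e-07), with Control arrays at 8.67 to 8.91. Its partner H2-Aa read 8.91, 8.90 and 8.69 against 9.49, 9.61 and 9.51 and rose by 0.70 (SE 0.13, adjusted p 0.00141). Both held with liver arrays only, at adjusted p 0.00192 (H2-Ab1) and 0.0173 (H2-Aa). H2-Aa fell under the fold threshold without HCD array C (0.63) and without HCD+Sim array B.

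Cd74, the invariant chain that travels with these molecules, rose by 0.64 (adjusted p 1.38e-05), under the fold threshold. Cxcl9, a chemokine induced by interferon gamma, read 8.40, 8.63 and 8.31 against 9.26, 9.52 and 8.76 and rose by 0.74 (adjusted p 0.00779). Tgtp2, an interferon-induced GTPase, read 7.79, 7.73 and 7.54 against 8.48, 8.41 and 8.31 and rose by 0.71 (adjusted p 2.18e-05). With liver arrays only the adjusted p was 0.171 for Cxcl9 and 0.0646 for Tgtp2, and both calls were lost without HCD array C (0.67 and 0.64) or without HCD+Sim array A (0.70 and 0.67), that of Cxcl9 also without HCD+Sim array B (0.57). Ifng itself differed by 0.14 and Ciita, the activator of class II genes, by 0.27, without passing.

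Markers of immune cells were measured beside these genes. All 11 Kupffer cell and macrophage genes were positive, where 13742 of 22080 genes were, with a median of 0.25. None was DE, and Marco, a scavenger receptor, rose by 0.54 by the adjusted p alone. The summed linear intensity of the 11 genes was 4225 to 5299 in HCD+Sim, 3809 to 4211 in HCD and 4391 to 5238 in Control. Of 12 dendritic and B cell genes, a list written after the values were seen, 11 were positive with a median of 0.11 and none was DE, at sums of 889.4 to 1009 in HCD+Sim and 825.4 to 895.2 in HCD. The 6 lymphocyte genes had a median of 0.12 with none DE, at sums of 396.7 to 419.8 in HCD and 410.7 to 496.0 in HCD+Sim, and Cd3g, a chain of the T cell receptor complex, rose by 0.53 by the adjusted p alone. The part of these cells in the class II result was not tested.

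Acute phase genes split by array. Of 24 genes 20 were positive with a median of 0.19, where 13742 of 22080 genes were positive. The 2 DE higher (0.199% of all genes) were Mt1 and Mt2, the metallothioneins already given. The 1 DE lower (0.0589% of all genes) was Hamp2. Hamp2, a hepcidin paralog, read 9.74, 9.95 and 9.78 in HCD and 9.04, 9.02 and 8.28 in HCD+Sim, a log2 difference of -1.04 (SE 0.17, adjusted p 0.00046), and it kept its call with each array left out (adjusted p 0.0596 with liver arrays only). Hamp, the iron hormone itself, shares near-identical sequence and differed by -0.21. Saa2, already given by array, differed by 2.88 (adjusted p 0.101). Saa1 read 11.42, 11.97 and 6.71 in HCD+Sim against 7.83 to 8.21 in HCD, and Orm2, orosomucoid 2, read 10.83, 11.27 and 6.89 against 7.32 to 7.72. In each of these, arrays A and B of HCD+Sim stood high and array C at or below HCD, so the 3 arrays overlap HCD.

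Other DE genes had single roles. Slc13a5, the citrate importer of the hepatocyte membrane, read 6.48, 6.28 and 6.66 in HCD and 7.66, 8.05 and 7.03 in HCD+Sim and rose by 1.11 (SE 0.16, adjusted p 5.23e-05). Cxcl14, a chemokine, read 7.00, 7.00 and 6.70 against 7.91, 8.41 and 7.61 and rose by 1.08 (SE 0.13, adjusted p 4.38e-06), the last of the 5 genes that held with liver arrays only (adjusted p 0.0173). Osgin1, an oxidative stress response gene, read 9.88, 9.85 and 9.79 against 10.68, 10.81 and 10.63 and rose by 0.87 (SE 0.13, adjusted p 0.000171). These 3 kept their calls with each array left out. With liver arrays only the adjusted p was 0.0727 for both Slc13a5 and Osgin1. Isyna1, which makes inositol phosphate, rose by 0.81 and Slc25a4, the ADP/ATP carrier most abundant in heart and muscle, by 0.77, with HCD+Sim array C the lowest at 7.82 and 7.73. Neither held without HCD+Sim array B (0.50 and 0.54) or with liver arrays only (adjusted p 0.325 and 0.152). Rab30, a GTPase of the Golgi, read 6.83, 6.80 and 7.23 against 7.74, 7.48 and 7.95 and rose by 0.77 (adjusted p 0.0203), a call lost without HCD+Sim array C and without HCD array A or B (0.66 to 0.71), and with liver arrays only its adjusted p was 0.212.

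Fgl1, a protein secreted by hepatocytes and named here after its values were seen, read 10.19, 10.38 and 10.00 in HCD and 11.36, 11.61 and 10.07 in HCD+Sim. Array C overlapped HCD, the difference was 0.82 (adjusted p 0.0469), and without any 1 of the other 5 arrays the call was lost. With liver arrays only its adjusted p was 0.461. Among lower genes Aqp8, a water channel, read 9.79, 9.75 and 9.59 against 9.002, 9.11 and 8.71 and fell by 0.77 (adjusted p 0.000446). Rdh11, a retinol dehydrogenase, read 7.58, 7.57 and 7.51 against 6.94, 6.99 and 6.51 and fell by 0.74 (adjusted p 0.000602). Both were under the fold threshold without HCD+Sim array C (-0.65 and -0.59), and with liver arrays only the adjusted p was 0.0727 for Aqp8 and 0.129 for Rdh11. The gene models BC021614 (-0.72), Gm15441 (1.08), Gm10804 (0.77) and LOC102641264 (0.86), also named after their values were seen, were the last of the 35 DE genes outside pancreas and muscle.

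Exocrine pancreas genes were high on 2 of the 3 HCD+Sim arrays. Of 44 measured genes 37 were positive, where 13742 of 22080 genes were. The median was 0.38, and 14 were DE, all higher (0.199% of all genes). Amy2a5, pancreatic amylase, read 6.91, 7.06 and 6.87 in HCD and 9.34, 9.88 and 7.10 in HCD+Sim. It rose by 1.83 (SE 0.30, adjusted p 0.000436). Ctrb1, chymotrypsinogen, read 6.78, 6.81 and 6.71 against 9.14, 9.69 and 6.95 and rose by 1.83 (adjusted p 0.000296). Cpa1, a carboxypeptidase, read 5.95, 5.93 and 5.92 against 7.57, 8.40 and 6.35 and rose by 1.51 (adjusted p 0.000106).

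The other DE genes of the list were 2210010C04Rik (1.79), Rnase1 (1.40), Ctrl (1.32), Cpb1 (1.32), Pnliprp1 (1.11), Cel (1.09), Pnlip (1.05), Clps (0.97), Cela2a (0.96), Prss2 (0.74) and Zg16 (0.72), nearly all of them digestive enzymes of acinar cells. Trypsinogens, amylases and carboxypeptidases have paralogs of like sequence, so the probe sets may share signal. Per array the list median was 6.42, 6.54 and 5.84 in HCD+Sim A, B and C and 5.55 to 5.79 on the other 12 liver arrays. The summed linear intensity was 5160, 6831 and 3093 in HCD+Sim, 2686 to 2916 in HCD and 2630 to 3006 in the remaining groups. The 13 islet genes had a median of 0.13 and none was DE. Array C lay below A and B in all 14 DE genes and at or below the highest HCD array in 4 of them. In kidney the list median was -0.06 and in brain 0.05, with no DE gene.

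Skeletal muscle genes followed the same arrays. Of 58 genes 54 were positive, where 13742 of 22080 genes were. The median was 0.26, and 8 were DE, all higher (0.199% of all genes). The 8 were the calcium pump Atp2a1, the sarcomere genes Myl1, Myh1, Acta1, Myh4, Myh2 and Tpm2, and Tnnc2, a troponin of fast fibres. Atp2a1 read 6.85, 7.21 and 6.73 in HCD and 8.98, 9.54 and 6.88 in HCD+Sim, with 7.78, 8.04 and 7.65 in Control. It rose by 1.54 (SE 0.28, adjusted p 0.00194). Myl1 read 5.55, 5.56 and 5.45 against 7.28, 7.50 and 5.58 and rose by 1.27 (adjusted p 0.00233). Array C lay below A and B in all 8 and at or below the highest HCD array in 6.

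The summed intensity of the muscle list was 7158, 8834 and 5517 in HCD+Sim, 5007 to 5489 in HCD and 5903 to 6846 in Control. HCD was thus itself lower than Control. In that comparison 51 of 58 genes were negative, where 11966 of 22080 genes were, with a median of -0.18. Of the 58, 2 were DE lower in HCD than in Control, against 31 of all 22080 genes. Myl2, a slow muscle light chain, differed by 0.14 with overlapping arrays. Without HCD+Sim array B 8 pancreas and 1 muscle gene were DE, and without array C 19 and 12. With dim genes filtered out, 5 pancreas and 4 muscle genes were DE. With liver arrays only none passed, with adjusted p from 0.0984 to 0.377 among the 14 pancreas genes and from 0.152 to 0.395 among the 8 muscle genes. The part of these tissues in the samples was not tested. The hepatocyte list median on HCD+Sim arrays A, B and C was 12.86, 12.81 and 12.91.

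**Figure D4:**
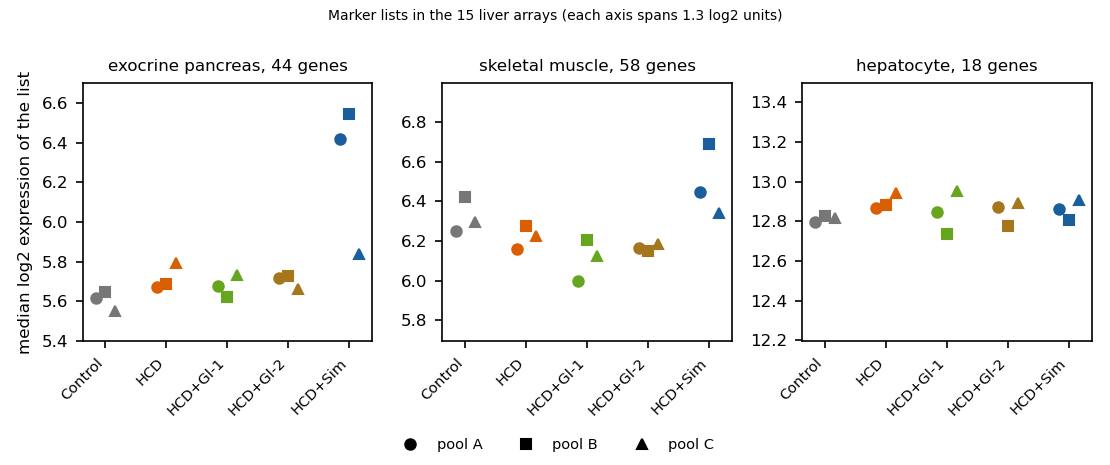
Median log2 expression of the exocrine pancreas, skeletal muscle and hepatocyte lists on each of the 15 liver arrays, by diet group and pool. HCD+Sim arrays A and B stand above all other arrays for pancreas (6.42 and 6.54) and muscle, array C of HCD+Sim at 5.84 for pancreas, and the hepatocyte list spans 12.74 to 12.95.

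Of 11 genes that the study's text names for simvastatin in liver, 10 were DE. They were chosen on these same arrays, so this count is no independent evidence, and 3 of the 11 belong to the pancreas list and 5 to the muscle list above. Lists without a DE gene included those of bile acid synthesis and transport (20 genes, median -0.07), sterol efflux (14, median 0.03), Cyp2 and Cyp3 enzymes (30, median -0.02), glucose metabolism (18, median -0.10), lipid droplet proteins (14, median 0.15), the clock (20, median 0.04), immediate early genes (24, median 0.11), heat shock (13, median 0.05) and NRF2 conjugation (16, median 0.06). The same held for markers of endothelium (8, median 0.04), stellate cells and fibroblasts (10, median 0.03), cholangiocytes (7, median 0.07), erythroid cells (3, median 0.12), adipose tissue (7, median 0.09) and squamous epithelium (12, median -0.01), for male-biased genes (12, median -0.01) and for housekeeping genes (10, median -0.01). Of 12 female-biased genes 2 were DE higher (0.199% of all genes), Acot3 and Cyp4a14, already described. Cyp7a1, the rate-limiting enzyme of bile acid synthesis, read 10.24, 10.49 and 9.96 in HCD and 9.94, 10.05 and 9.41 in HCD+Sim, a difference of -0.43 (adjusted p 0.263), after a rise of 1.02 from Control to HCD.

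The same drug comparison was made in kidney and brain. In kidney 31 genes were DE (0.14%), 6 higher (0.0272%) and 25 lower (0.113%). In brain limma called none (0.0%), with 4 genes past the adjusted p alone (0.0181%) and 1220 at an unadjusted p under 0.05 (5.53%). The contrast of the liver and kidney responses was DE for 56 genes (0.254%), 45 higher in liver (0.204%) and 11 lower (0.0498%). Of the 45, 8 belong to the exocrine pancreas list, 2 to the muscle list and 35 to neither. The contrast of liver and brain was DE for 14 genes (0.0634%), 10 higher (0.0453%) and 4 lower (0.0181%). Mt2 differed by 1.72 in liver, -0.22 in kidney and -0.05 in brain. Acly differed by -0.90 in liver, 0.05 in kidney and 0.04 in brain, and both contrasts were DE. Fasn differed by -0.12 in kidney and -0.07 in brain, but its contrasts with liver did not pass (adjusted p 0.148 and 0.162).

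Tgtp2 rose in kidney by 0.70 (adjusted p 8.12e-06) as it did in liver, and its contrast was 0.01 (adjusted p 0.994). The interferon-induced gene Iigp1 rose by 0.70 in kidney (adjusted p 0.000415) and differed by 0.09 in liver, a contrast that did not pass (adjusted p 0.104). The liver and brain count was 4 without brain HCD array B and 52 without liver HCD+Sim array C, and the liver and kidney count 37 without kidney HCD+Sim array A and 88 without liver HCD+Sim array C.

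**Figure D5:**
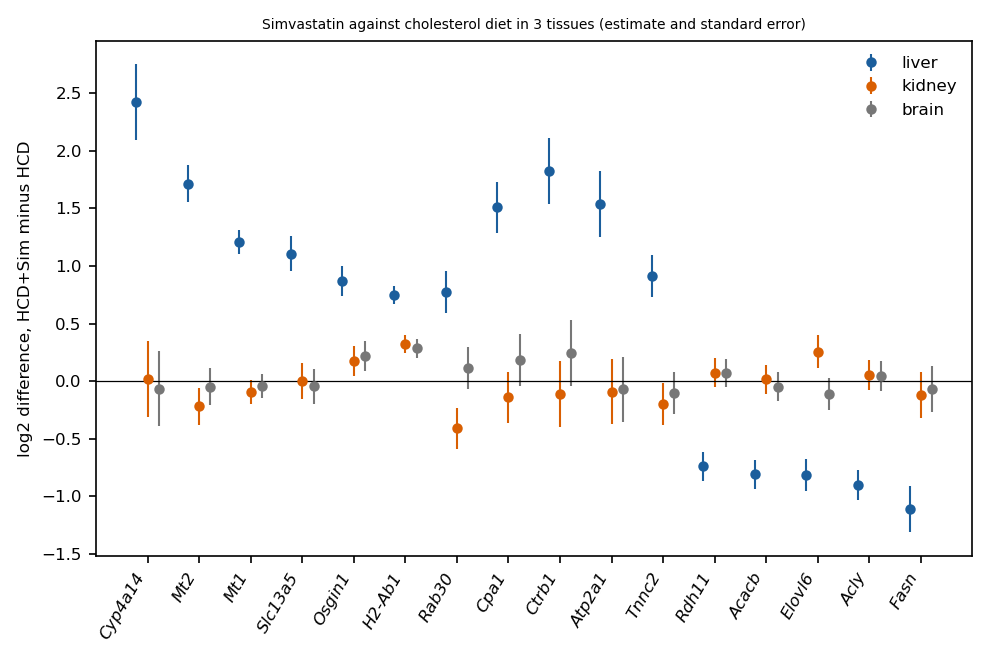
Log2 difference of HCD+Sim minus HCD (vertical axis) for 16 genes in liver, kidney and brain, with points for the limma estimates and bars for the standard errors. Mt2 stands at 1.72 in liver, -0.22 in kidney and -0.05 in brain, and Acly at -0.90, 0.05 and 0.04.

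The extracts were set against simvastatin directly, since each comparison with HCD shares the same 3 HCD arrays. HCD+Sim differed from HCD+Gl-1 in 55 DE genes (0.249%), 43 higher (0.195%) and 12 lower (0.0543%), and from HCD+Gl-2 in 63 (0.285%), 36 higher (0.163%) and 27 lower (0.122%). These counts are over all genes, those of the pancreas and muscle lists included. The count against Gl-1 was 92 without Gl-1 array B, and that against Gl-2 was 95 without Gl-2 array B, with 42 higher and 53 lower. Without HCD+Sim array C the split was 61 higher and 6 lower against Gl-1, and 54 higher and 19 lower against Gl-2. H2-Ab1 was higher under simvastatin than under Gl-1 by 1.05 (adjusted p 4.57e-11) and than under Gl-2 by 0.88 (adjusted p 7.75e-09). Cd74 was higher by 1.05 and 0.80. Amy2a5 was higher by 2.09 and 2.12.

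Of the lipid genes, Fasn and Fdps showed no difference from either extract that passed. Fasn stood 0.06 above Gl-1 (adjusted p 0.888) and -0.27 from Gl-2 (adjusted p 0.642), its own differences from HCD being -1.11 under simvastatin, -1.18 under Gl-1 and -0.84 under Gl-2. Fdps stood 0.03 and 0.01 from the extracts, against -0.78, -0.80 and -0.79 from HCD. Mt2 was 0.53 above Gl-1 (adjusted p 0.055) and -0.39 from Gl-2 (adjusted p 0.298), with rises over HCD of 1.72, 1.19 and 2.11. Cyp4a14 was higher than under Gl-1 by 1.43 (adjusted p 0.0108) and differed from Gl-2 by 0.88 (adjusted p 0.223). Lpin1 was DE lower than under Gl-2, with a difference of -0.78 (adjusted p 0.0184), and its difference from Gl-1 was -0.63 (adjusted p 0.0415).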

How the data were processed

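RNA of liver, kidney and brain was measured on 45 arrays, 3 per diet group and tissue, grouped by the labels. Before deposit the authors applied RMA background correction, quantile normalization and a ComBat batch adjustment, and they deposited log2 expression values with 1 probe set per gene, the one of highest interquartile range. Which batches ComBat adjusted is not given in the sources used here. Both adjustments can alter differences between groups and the spread within them. There are 22080 genes, of which 13 have symbols that became dates. These were tested but not named.

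With limma 3.58.1 in R 4.3.3 the 45 arrays were fitted together, each of the 15 groups having its own mean (empirical Bayes, prior degrees of freedom 7.34, residual 30), with Benjamini-Hochberg adjustment over all genes in each comparison. All adjusted p-values come from this fit unless another is named. A gene was DE at a log2 difference beyond 0.7 and an adjusted p of at most 0.05. Tissue responses were compared as a contrast of 2 differences. An exact permutation test of 3 against 3 arrays cannot give a two-sided p under 0.1 and was not used. The number of arrays limits the precision. On simulated data for this comparison with 22080 genes, 98% of genes changed by 1 log2 unit were recovered, with 1 false call. The simulated noise was independent between arrays, with the same SD for a gene on all 45. It therefore cannot tell how array C as a mix, or a wider spread in liver, affects the calls.

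Genes were named as the up to 15 non-overlapping DE genes per direction with the largest difference outside the pancreas, islet and muscle lists, up to 8 genes each of the exocrine pancreas and muscle lists, the genes the study names for simvastatin in liver, and members of gene lists. Members and lists were chosen with earlier results of these data known. Sums over a list are of linear intensities. Promoters are from RefSeq on GRCm38.p6, and 39 of 46 named genes searched had one in the table. Tables and figures were made with Python 3.11.15, pandas 2.3.3, numpy 2.4.6 and matplotlib 3.10.9. Alternatives were fits on liver arrays or the 6 compared arrays, leaving out array C everywhere, blocking on the letter of the pool, removing dim genes, a second quantile normalization, trend and robust moderation, no fold threshold, and each array left out. Some members of the lists, and 1 list, are not reported here.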

Additional observations from a re-analysis of the deposited data

Results flagged for a closer look

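The 46 genes named for the size of their difference or by the study were compared between tissues. The test was the limma contrast of the 2 differences, with a Benjamini-Hochberg adjusted p of at most 0.05. The liver response to simvastatin differed from the kidney response in 18 of the 46, where 66 of all 22080 genes passed this adjusted p. Most of the 46 were chosen by their liver difference, which is part of the contrast. The count of 18 is therefore raised by the choice and is no independent evidence of a difference between tissues. Over the whole lists this contrast was DE for 8 of 44 exocrine pancreas genes, higher in liver (0.204% of all genes). It was DE for 4 of 22 fatty acid synthesis genes, lower in liver (0.0498% of all genes). The contrast, liver minus kidney on the log2 scale, was positive for Cyp4a14 (2.40), Mt2 (1.94), Mt1 (1.304), Slc13a5 (1.11), Cxcl14 (0.84) and Rab30 (1.18). It was negative for the lipid genes Acly (-0.96), Elovl6 (-1.07) and Acacb (-0.83) and for Rdh11 (-0.81). Among pancreas and muscle genes it was positive for Amy2a5 (1.86), Ctrb1 (1.94), 2210010C04Rik (1.92), Cpa1 (1.65), Rnase1 (1.55), Ctrl (1.46), Tnnc2 (1.11) and Tpm2 (0.85), all of which were highest on HCD+Sim liver arrays A and B.

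Against brain, 9 of the same 46 genes differed by the same test, where 22 of all 22080 genes did. The choice by the liver difference raises this count too. The contrast, liver minus brain, was positive for Cyp4a14 (2.49), Mt2 (1.76), Mt1 (1.25), Slc13a5 (1.15), Cxcl14 (1.21) and Isyna1 (1.101), and negative for Acly (-0.94), Me1 (-0.92) and Rdh11 (-0.81).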

How the results depend on the processing

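With the fit limited to the 15 liver arrays 5 genes were DE in place of 57, all 5 outside the pancreas and muscle lists, with the 6 compared arrays alone 0 and 0 (limma; 1729 genes at an unadjusted p under 0.05), and after a second quantile normalization of the liver arrays, again fitted alone, 4 and 4. Without the fold threshold the counts were 242 in all, 207 outside the lists, 22 for liver minus brain, 902 against Gl-1 and 289 against Gl-2. With pools A and B only, 114 genes were DE for liver minus kidney and 76 for liver minus brain. The pool letter as a replicate block gave 62 DE genes and, for liver minus brain, 27. In their deviations from the group means, same-letter arrays of HCD and HCD+Sim correlated at 0.223, 0.072 and 0.049. Unlike letters correlated at -0.153 to 0.071. The groups hold different mice, so the letters do not pair animals. An effect shared by arrays of a letter was not tested. Leaving out 1 array at a time gave 48 to 74 DE genes, 25 to 43 outside the lists, 37 to 88 for liver minus kidney, 4 to 52 for liver minus brain, 48 to 92 against Gl-1 and 47 to 95 against Gl-2. The genes called changed more than these counts. Of 53 DE genes checked 21 kept their call with each of 6 arrays left out, and outside the lists 12 of 31. Of the 74 called without HCD+Sim array C, 42 were among the 57. The ranges for the tissue contrasts and the extracts were chosen after seeing the data. With dim genes removed 44 genes were DE, 5 of them in the pancreas list (14 before) and 4 in the muscle list (8 before). None of the 54 genes checked in HCD+Sim against HCD changed sign under an alternative, but this was largely fixed in advance. Several alternatives leave the difference itself unchanged, such as the fit on liver arrays, the block and the trend moderation. Where the groups do not overlap, leaving out 1 array cannot change the sign either. Of these 54 genes, 48 lost their call with liver arrays only, 7 with pools A and B only and none with the block. The causes were not tested. With 2 separate pools per group, animal variation cannot be estimated.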
